A study of Homo sapiens with 1536 samples.

Results

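YM155, PAC1, RITA and SJ172550 are 4 compounds of a collection of 180 that act on the machinery of apoptosis or on MDM2 and its relative MDMX, chosen by the target that the study lists for each: survivin for YM155, caspases for PAC1, and an entry with MDM2 for RITA and SJ172550, with RITA listed as a DNA alkylator or crosslinker as well. They account for 32 of 1536 wells, since each compound was given at 4 doses in 2 replicates. Every well held the same pool of 5 breast cancer cell lines, the triple-negative lines BT-20, HCC-38 and MDA-MB-231, the HER2+ line SKBR3 and the ER+ line ZR-75-1, and each line carried 12 sgRNAs. All wells, the 96 DMSO control wells included, had 7 days of doxycycline to induce Cas9 before the pool was exposed to compound or DMSO for 72 h. YM155 was given at 1, 10, 100 and 1000 nM, and PAC1, RITA and SJ172550 at 10, 100, 1000 and 10000 nM. There is 1 sgRNA for each of 11 genes, and the control, sgNT, sums 5 guides without a target. The cells are populations with an sgRNA, not clones, and the 5 lines grew in 1 culture, so a value for a line is its cell number in the presence of the other 4 lines. The labels number the replicates 1 and 2, and the study's methods describe them as separate biological samples. By the labels, the DMSO wells of a plate belong to 1 dose level and 1 replicate, while the compound wells name no plate. With compound wells laid out in the same way, a dose or a replicate cannot be told apart from its plate.

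Apoptosis is carried out by caspases, proteases that are made as inactive procaspases and are held in check by inhibitor proteins, of which survivin (BIRC5) is a family member that also works in mitosis. MDM2 is a ubiquitin ligase, and MDMX is a related protein that works together with it. YM155 was described as a suppressant of survivin expression and PAC1 as an activator of procaspase-3, while SJ172550 was described as a binder of MDMX.

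A sequencing read assigned a cell to its line by an 8-base barcode and to its knockout by the 20-base sgRNA itself, so the pairing of these sequences in a read is what every value below rests on. The 6 line barcodes, that of the spike-in standards included, differ from each other by at least 4 mismatches and the 21 guides by at least 10, while 1 mismatch was allowed in the assignment. The line barcodes (all bases shown in capitals) are given because swaps between them and the guides bear on the RITA wells.
ZR-75-1: ATCACTGG
SKBR3: CGGTGACC
HCC-38: TACAGAGG
MDA-MB-231: TAACAGTT
BT-20: ATTGTCAA
Spike-in standards: GCTGGATT
Of the guides, the 4 below carry the sgRNA results for YM155 and RITA, and capitals mark the 12 bases nearest the PAM, the part of a guide at which Cas9 tolerates mismatches least. SLC35F2 is a solute carrier needed for uptake of YM155, ATF4 the transcription factor of the integrated stress response, ATF6 a transcription factor held in the endoplasmic reticulum membrane, and KEAP1 the adaptor that sends NRF2 for degradation.
sgSLC35F2: catgacagAGCCATCAACAC
sgATF4: agatgaccTTCTGACCACGT
sgATF6: tgagccctGCAAATCAAAGG
sgKEAP1: cagcaccgTTCATGACGTGG

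Relative cell number, in percent of the median of the DMSO wells, was interpolated in each well from 5 spike-in standards, cells of a further line added in known numbers. The value of a line is the mean of its sgRNAs, without ZR-75-1 sgHSF1 and sgKEAP1, which the study left out. The 32 wells held between 74652 and 1106634 reads and the DMSO wells between 155067 and 986006. Over the 96 DMSO wells the line values had an SD of 10.6 to 14.3 percentage points. In the 16 pairs of replicate wells the chi-square of the counts per degree of freedom was at least 49.4, so the spread between wells, rather than the depth, sets the precision. This spread grew as cell number fell. On the log2 scale the SD of a well was 0.146 at 80% to 110% of DMSO and 0.215 at 15% to 40%. It was 0.335 at 5% to 15% and 0.481 under 5%. The tests of line values below take 1 spread for each line, 0.148 to 0.204, so their SEs and p-values are too small for strongly lowered groups.

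The RITA wells stood apart from the DMSO wells and from those of YM155, PAC1 and SJ172550 in the reads that paired barcodes never put together in a cell. A total of 41 possible pairs were never made, and the reads on them gave an estimate of the share of all reads whose line barcode and guide had been swapped, taking swaps to draw on barcodes in proportion to their abundance. At 10 nM RITA the estimate was 25.8% in replicate 1 and 40.9% in replicate 2. At 100 nM it was 15.5% and 10.05%, at 1000 nM 20.6% and 24.1%, and at 10000 nM 19.2% and 10.2%. Taken from each of the 6 line barcodes alone, the estimates ran from 13.4% to 22.4% and from 12.7% to 25.6% in the 1000 nM replicates. In replicate 1 at 10000 nM they ran from 13.3% to 21.2%. Swaps in these wells were thus not fully in proportion to abundance, and values after subtraction are less certain there. All 8 RITA wells lay above all 96 DMSO wells, which ranged from 0.732% to 7.91% with a median of 1.63%. The 24 wells of YM155, PAC1 and SJ172550 lay between 0.704% and 4.28%, inside or just below the DMSO range. The share of reads on never-made pairs, which needs no assumption, was 3.93% (exact 95% interval 3.88% to 3.99%, counting error only, as PCR reads are not independent molecules) and 5.75% (5.67% to 5.82%) in the 10 nM RITA wells. Among the compounds with deposited ratios, 3 had all 8 wells over 10%, RITA, Bendamustine and Blebbistatin. The RITA results below are therefore given as deposited and, for the calls against DMSO, the line differences and the named sgRNAs, again after the estimated swapped reads were subtracted from the counts of every well.

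YM155 lowered cell number in all 5 lines from 10 nM on. It passed the test against DMSO as lower in 17 of 20 combinations of line and dose and as higher in 0, where 33% of all 3480 combinations of compound, dose and line were called lower and 1.7% higher. At 1 nM, HCC-38 stood at 58.2% and 62.7% of DMSO in the replicates and MDA-MB-231 at 67.3% and 69.2%. Both lines were below DMSO, by a log2 difference of -0.74 ± 0.11 (SE, adjusted p = 2.6e-10) in HCC-38 and -0.56 ± 0.13 (adjusted p = 4.5e-05) in MDA-MB-231. In the other 3 lines the 1 nM values lay between 87.8% and 106.3%, and the test found no difference, with 95% intervals of the log2 difference of -0.29 to 0.27 in ZR-75-1, -0.40 to 0.10 in SKBR3 and -0.31 to 0.11 in BT-20.

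At 10 nM YM155 the lines spread out. ZR-75-1 stood at 31.9% and 34.7%, HCC-38 at 27.8% and 27.2%, and MDA-MB-231 at 30.9% and 33.6%. BT-20 kept 50.8% and 51.3% and SKBR3 62.9% and 61.9% of the DMSO cell number, so neither replicate of these lines overlapped the other 3 lines. At 100 nM the line values fell to between 4.75% and 14.6%. By the mean of the replicates MDA-MB-231 was the highest (14.6% and 8.79%) and HCC-38 the lowest (4.75% and 5.75%). The first replicates of SKBR3 (9.23%) and ZR-75-1 (8.86%) were above the second of MDA-MB-231. The MDA-MB-231 mean includes sgSLC35F2 at 85.2% and 48.4%, and the median sgRNA of this line stood at 7.22% and 5.16%. At 1000 nM all lines were between 2.40% and 8.26%, and the replicates of a line differed as much as the lines did.

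PAC1 left cell number near DMSO up to 1000 nM and lowered it in every line at 10000 nM. Of 20 combinations 6 were called lower and 0 higher, beside 33% and 1.7% of all 3480 combinations, so this count was near that of all compounds. At 10000 nM ZR-75-1 stood at 25.01% and 14.6%, MDA-MB-231 at 29.5% and 25.1%, and HCC-38 at 33.97% and 29.2%. SKBR3 kept 38.6% and 39.9% and BT-20 45.5% and 40.3%. All of these values were below the lowest DMSO well of their line, and the log2 differences ran from -1.21 ± 0.11 in BT-20 (adjusted p = 2.9e-27) to -2.34 ± 0.14 in ZR-75-1 (adjusted p = 3.2e-50). These SEs and p-values use the spread common to all doses of a line, which is too small at such low cell numbers. The remaining call was SKBR3 at 100 nM, with 84.1% and 72.8% of DMSO (log2 difference -0.35 ± 0.13, adjusted p = 0.020). At 1000 nM the same line was not called, with 86.8% and 79.7% (log2 difference -0.26 ± 0.13, adjusted p = 0.11). Its calls did not follow the dose, but the 2 values were close, and a shift of a plate cannot be told apart from a dose.

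RITA separated the lines more than any of the other 3 compounds did. ZR-75-1 and SKBR3 lost most of their cells at 100 nM, BT-20 at 1000 nM, and HCC-38 and MDA-MB-231 kept 32.6% to 77.6% of the DMSO cell number at 10000 nM. As deposited, 13 of 20 combinations were lower and 1 was higher, beside 33% and 1.7% of all combinations. After subtraction of swapped reads 15 were lower and 0 higher, beside 35% and 0.489% of all combinations.

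In ZR-75-1, RITA at 10 nM left 45.99% and 58.2% of DMSO (log2 difference -0.95 ± 0.14, adjusted p = 4.7e-10), and after subtraction 35.96% and 36.03%. At 100 nM the line stood at 11.4% and 7.01%, at 1000 nM at 9.44% and 16.3%, and at 10000 nM at 7.85% and 3.38%. From 100 to 1000 nM the values stayed low, and the replicates overlapped. After subtraction the values from 100 nM on lay between 3.16% and 13.003%. SKBR3 gave 63.3% and 98.99% at 10 nM, the widest pair of this line (log2 difference -0.34 ± 0.13, adjusted p = 0.029), and 49.9% and 64.1% after subtraction. It then fell to 16.2% and 13.4% at 100 nM, 8.42% and 15.4% at 1000 nM, and 7.14% and 5.02% at 10000 nM, or between 4.77% and 14.3% at these doses after subtraction.

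BT-20 held 94.8% and 125.7% at 10 nM, 76.2% and 70% at 100 nM, 22.3% and 24.9% at 1000 nM, and 10.8% and 6.596% at 10000 nM. It was called lower from 100 nM on as deposited, and at all 4 doses after subtraction, where the 10 nM values were 74.8% and 81.6% (log2 difference -0.36 ± 0.10, adjusted p = 0.0013). The subtraction left 68.04% and 64.96% at 100 nM, 19.1% and 20.2% at 1000 nM, and 9.56% and 6.25% at 10000 nM.

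HCC-38 was the line that RITA raised as deposited. At 10 nM it stood at 123.6% and 155.5% of DMSO, and the log2 difference was 0.45 ± 0.11 (adjusted p = 2.0e-04). With the swapped reads subtracted the same wells gave 93.6% and 92.98% and a log2 difference of -0.11 ± 0.10 (adjusted p = 0.47), so the direction turned. The call was also lost with sgNT as the only sgRNA (0.23) and without replicate 2 (0.29). At 100 nM HCC-38 stood at 119.1% and 122.6% (104.2% and 112.5% after subtraction) and at 1000 nM at 112.4% and 122.5% (95.8% and 97.98%), and it was not called at either dose. At 10000 nM it fell to 77.6% and 53.5% (log2 difference -0.64 ± 0.11, adjusted p = 3.8e-08), or 68.01% and 50.7% after subtraction.

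MDA-MB-231 gave 101.03% and 148.3% at 10 nM RITA, 108.5% and 91.6% at 100 nM and 98.5% and 85.6% at 1000 nM, and was not called at these doses. After subtraction the 1000 nM values were 83.9% and 69.6% and lower than DMSO (log2 difference -0.40 ± 0.12, adjusted p = 0.0037). At 10000 nM this line stood at 49.4% and 32.6% as deposited (log2 difference -1.31 ± 0.13, adjusted p = 6.8e-23), and at 43.3% and 30.96% after subtraction.

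**Figure D1:**
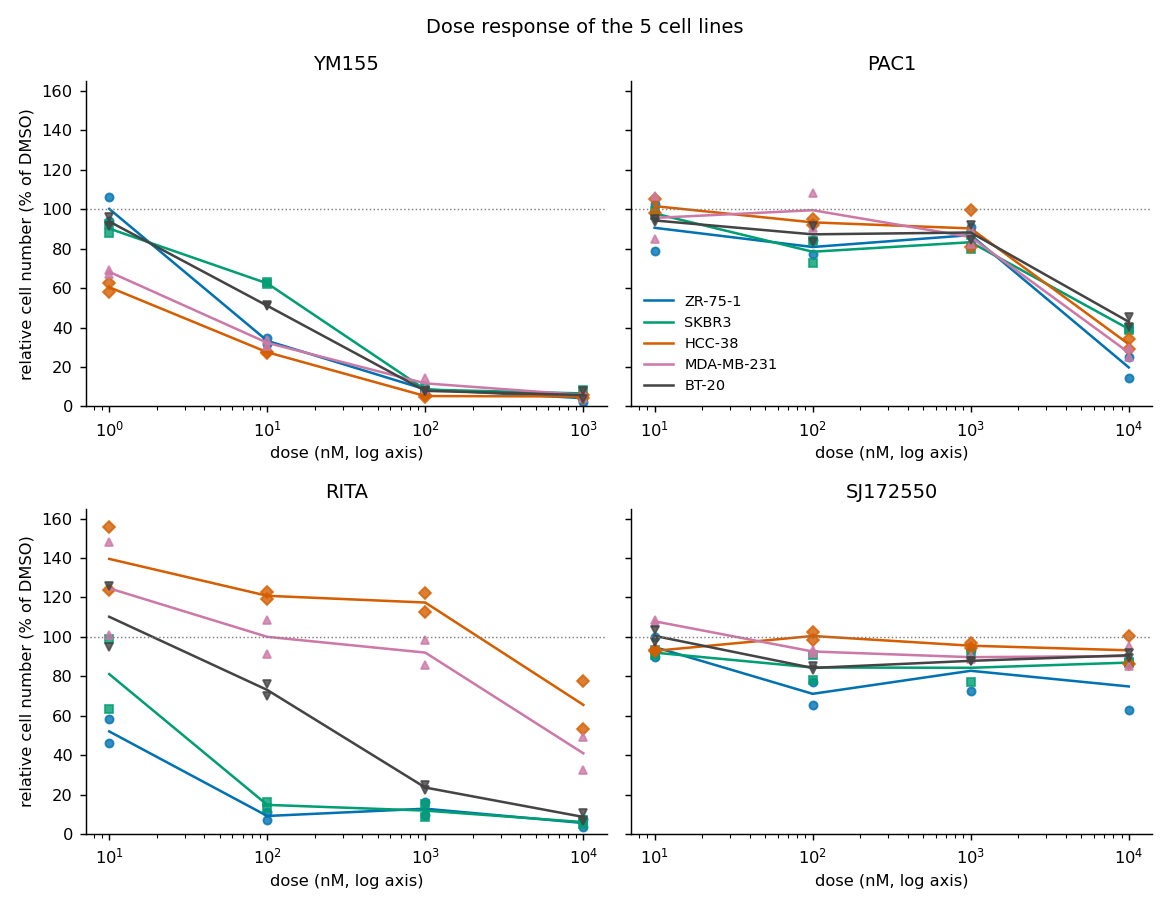
Relative cell number (percent of DMSO, linear axis) against dose (nM, log axis) for the 4 compounds as deposited; points are single wells, lines join the means of 2 replicates, and the dotted line is the DMSO level. RITA spreads the lines widely at 100 and 1000 nM, with ZR-75-1 and SKBR3 under 17% and HCC-38 over 110%, whereas YM155 brings all lines under 9% at 1000 nM, PAC1 lowers all of them at 10000 nM, and SJ172550 stays between 63.1% and 108.6%.

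**Figure D2:**
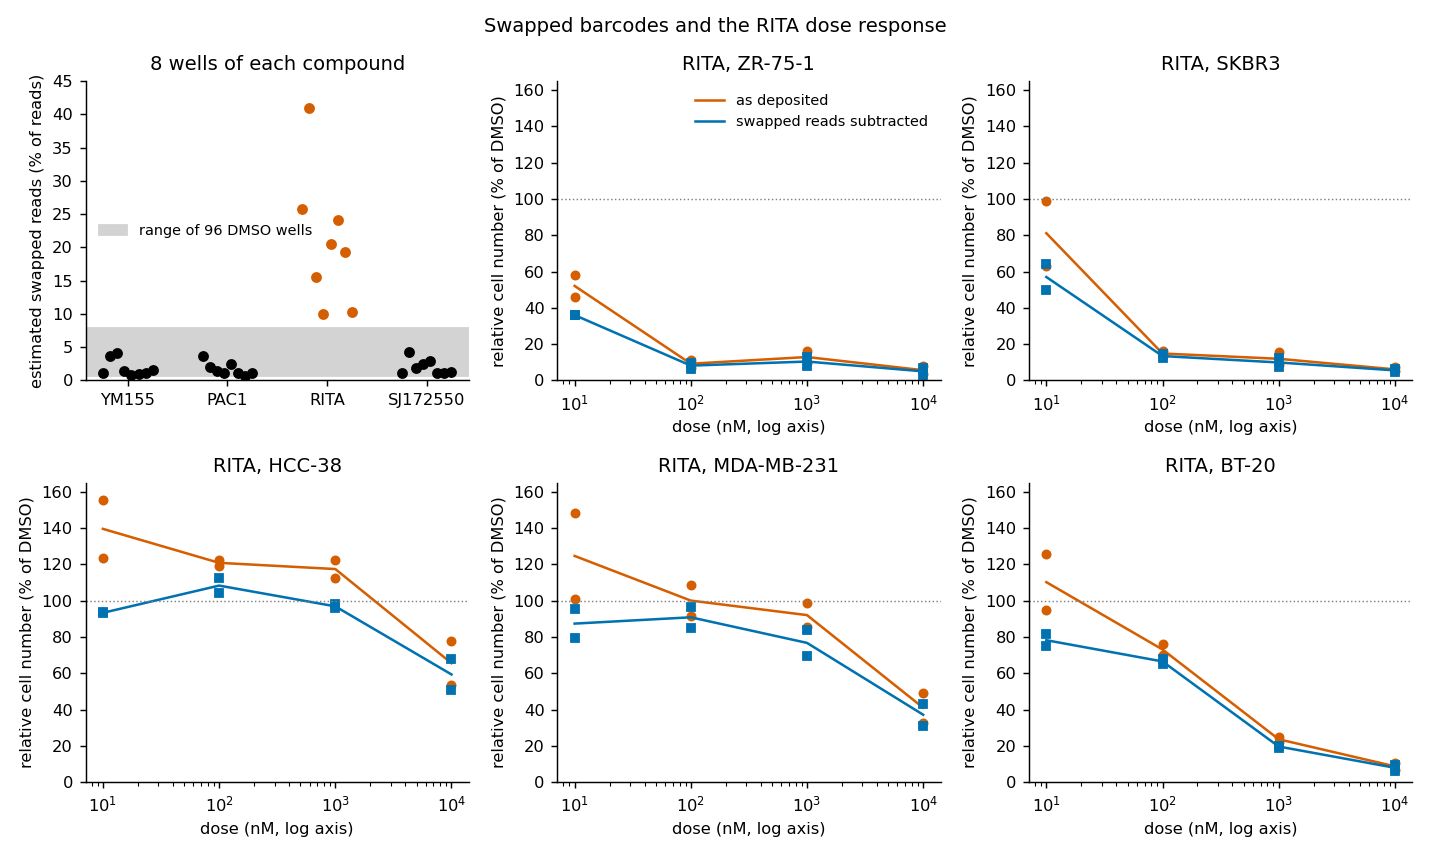
Upper left, the estimated percent of reads with swapped barcodes in each of the 8 wells of every compound, with the range of the 96 DMSO wells shaded; other panels, RITA in each line as deposited (circles) and with swapped reads subtracted (squares), percent of DMSO against dose in nM on a log axis. The subtraction lowers the 10 nM values most, from 123.6% and 155.5% to 93.6% and 92.98% in HCC-38, and leaves the order of the 5 line means in place, while in the second 10 nM well MDA-MB-231 (95.55%) then stood above HCC-38.

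SJ172550 changed cell number little. Of 20 combinations 3 were called lower and 0 higher, fewer than the 33% of all compounds, and 2 of the 3 were in ZR-75-1. ZR-75-1 stood at 89.9% and 99.8% at 10 nM, 76.95% and 65.3% at 100 nM, 93.1% and 72.5% at 1000 nM, and 63.1% and 86.6% at 10000 nM. It was called lower than DMSO at 100 nM (log2 difference -0.50 ± 0.14, adjusted p = 0.0020) and at 10000 nM (-0.44 ± 0.14, adjusted p = 0.0081). At 1000 nM it was not called, with a log2 difference of -0.29 and a 95% interval of -0.57 to -0.0056. The calls thus did not follow the dose, but the 3 values were close, and a shift of a plate cannot be told apart from a dose. The ZR-75-1 replicates at 10000 nM were 23.5 percentage points apart. The third call was BT-20 at 100 nM, with 85.1% and 83.4% (-0.25 ± 0.11, adjusted p = 0.049). At 10000 nM the other 4 lines stood between 85.4% and 100.4%, and their 95% intervals of the log2 difference reached down to -0.45 in SKBR3, -0.41 in MDA-MB-231, -0.36 in BT-20 and -0.34 in HCC-38. Without replicate 1 or without replicate 2 the count of lines and doses below DMSO was 1.

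At matched doses the 4 compounds form 6 pairs, which were compared in each line and at each shared dose, with p-values adjusted over all of these comparisons. In 74 of these (70.5%) the pair differed. YM155 left fewer cells than PAC1 and than SJ172550 in all 5 lines at 10, 100 and 1000 nM. Its difference from PAC1 on the log2 scale ran at 10 nM from -0.64 in SKBR3 to -1.85 in HCC-38, and at 1000 nM from -3.51 in SKBR3 to -4.18 in ZR-75-1. Against RITA, YM155 was lower in 4 lines at 10 and 100 nM and in 5 at 1000 nM. The lines in which the test found no difference were SKBR3 at 10 nM (-0.34, 95% interval -0.69 to 0.02) and ZR-75-1 at 100 nM (-0.04, -0.44 to 0.35). With swapped reads subtracted, ZR-75-1 at 10 nM was no longer called either (-0.12, adjusted p = 0.61).

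PAC1 and RITA differed in opposite directions in different lines. At 10000 nM PAC1 left more cells than RITA in ZR-75-1 (log2 difference 1.69 ± 0.20), SKBR3 (2.52 ± 0.18) and BT-20 (2.21 ± 0.15), and fewer in HCC-38 (-1.01 ± 0.15) and MDA-MB-231 (-0.54 ± 0.18), with all 5 called and adjusted p of at most 0.0033. With swapped reads subtracted all 5 kept their direction and their call, with -0.39 in MDA-MB-231 (adjusted p = 0.029). At 100 nM PAC1 was higher in ZR-75-1 by 3.04 and in SKBR3 by 2.33 on the log2 scale, and at 1000 nM also in BT-20 by 1.86. The calls of PAC1 below RITA in HCC-38 at 10, 100 and 1000 nM (-0.45, -0.37 and -0.38) were lost when the swapped reads were subtracted (0.10, -0.20 and -0.11). The subtraction added calls of PAC1 above RITA in SKBR3 at 10 nM (0.30 as deposited, then 0.77, adjusted p = 1.2e-05) and in BT-20 at 100 nM (0.25, then 0.39, adjusted p = 0.0072).

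PAC1 and SJ172550 did not differ in any of 15 comparisons from 10 to 1000 nM, where the log2 differences lay between -0.18 and 0.19 and their 95% intervals between -0.53 and 0.58. At 10000 nM PAC1 left fewer cells in all 5 lines, by -1.06 in BT-20 to -1.90 in ZR-75-1. RITA and SJ172550, both listed with MDM2, differed in ZR-75-1 from 10 nM on (adjusted p = 4.0e-05 at 10 nM) and in SKBR3 from 100 nM on. They also differed in BT-20 at 1000 nM (-1.85 for RITA minus SJ172550, adjusted p = 2.6e-32) and in all 5 lines at 10000 nM. Subtraction of swapped reads added SKBR3 at 10 nM (-0.70, adjusted p = 8.3e-05) and BT-20 at 10 and 100 nM (-0.36 and -0.33, adjusted p = 0.016 and 0.025). In ZR-75-1 the difference of RITA from SJ172550 was -0.86 ± 0.20 at 10 nM, -2.85 at 100 nM, -2.63 at 1000 nM and -3.59 at 10000 nM. In HCC-38 it was 0.57 ± 0.15 at 10 nM (adjusted p = 3.7e-04) and 0.01 after subtraction (adjusted p = 0.95), and at 100 and 1000 nM the 95% intervals of -0.04 to 0.57 and -0.01 to 0.60 included 0.

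Each dose response was condensed to an area under the curve (AUC), in which the lowest and the highest dose count with a weight of 0.5 and the doses between them with 1, so that a line without a response has an AUC of 300. For YM155 the 4 doses start lower, so its AUC is not comparable with that of the other 3 compounds. Each line was compared with the mean of the other 4. In 9 of 20 comparisons the line differed, and over all compounds 22.1% of 870 did. The 5 lines of a replicate shared their wells, and with the replicate as a block 13 of 20 differed, beside 39.2% of the 870, all 9 among them.

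With RITA all 5 lines differed from the rest. The replicate AUCs were 47.7 and 54.1 in ZR-75-1, 59.8 and 80.9 in SKBR3, 151.3 and 161.04 in BT-20, 282.2 and 267.6 in MDA-MB-231, and 332.2 and 350 in HCC-38. No line overlapped its neighbour in this order. The difference from the mean of the other 4 lines was -159.6 in ZR-75-1 (SE 8.42, adjusted p = 8.3e-06), -135.4 in SKBR3 (adjusted p = 2.3e-05), -28.1 in BT-20 (adjusted p = 0.044), 120.3 in MDA-MB-231 (adjusted p = 4.7e-05) and 202.8 in HCC-38 (adjusted p = 2.1e-06). Of the 10 pairs of lines 9 differed, beside 22% of all such pairs, and the exception was ZR-75-1 and SKBR3 (difference -19.4 ± 10.7, adjusted p = 0.26). With the replicate block the same 9 were called, beside 38.7% of all pairs. After subtraction of swapped reads the differences were -135, -115.3, -22.1, 103.7 and 168.4 in the same order, and all kept an adjusted p of at most 0.049, where 27.4% of all 870 were then called. The BT-20 difference was the least stable: summed on the log2 scale it was 0.051 with the sign turned.

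With YM155, SKBR3 had the highest AUC (118.5 and 120) and HCC-38 the lowest (63.6 and 67.3). SKBR3 differed from the other lines by 31.98 (SE 6.11, adjusted p = 0.0062) and HCC-38 by -35.3 (adjusted p = 0.0042). BT-20 (106.3 and 111.1) and SKBR3 did not differ as neighbours (difference 10.6 ± 7.72, adjusted p = 0.40), nor did MDA-MB-231 (81.3 and 80.6) and HCC-38 (-15.5, adjusted p = 0.21). ZR-75-1, with 88.9 and 99.2, lay in the middle, 0.48 from the mean of the rest (SE 6.11). With the replicate block MDA-MB-231 (-15.9, adjusted p = 0.028) and BT-20 (18.8, adjusted p = 0.014) also differed from the rest. These line means include sgSLC35F2, with AUCs of 236.9 in MDA-MB-231, 160.7 in BT-20, 126.2 in HCC-38, 110.5 in SKBR3 and 102.3 in ZR-75-1. The median sgRNA gave the same order of lines but lay lower in MDA-MB-231. It was 118.1 in SKBR3, 104.6 in BT-20, 88.7 in ZR-75-1, 65.9 in MDA-MB-231 and 58.6 in HCC-38.

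With SJ172550, ZR-75-1 had AUCs of 246.6 and 231.1, a difference of -35.3 from the other lines (SE 8.44, adjusted p = 0.017), and HCC-38 288.9 and 289.2, a difference of 27.5 (adjusted p = 0.048). MDA-MB-231, 17.95 above the rest, was called with the replicate block alone (adjusted p = 0.049). The ZR-75-1 difference was -26.2 without sgSLC35F2 (adjusted p = 0.071), the sgRNA with the lowest value in that line. With PAC1 no line was called without the block (adjusted p of at least 0.19), while with it ZR-75-1 was (-19.9, adjusted p = 0.045), and the line AUCs were within 222.9 to 250.1.

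Single knockouts were compared with the median AUC of all sgRNAs in the same line and replicate. Of the 58 sgRNA and line pairs compared with each of the 4 compounds, 7 comparisons were called higher and 2 lower, that is more and less cells than the median sgRNA, where 0.941% and 0.208% of all 10092 were called. The unadjusted p was under 0.05 in 33. The share of all 10092 at this unadjusted level was not counted, so whether 33 is more than compounds in general give cannot be told. Of the unfolded protein response genes (ERN1, XBP1, ATF3, ATF4, ATF6; 25 comparisons a compound) 0 were called by limma with YM155, PAC1 or SJ172550 and 2 were higher with RITA, of which 0 were called after subtraction of swapped reads. Of the heat shock genes (HSF1, HSF2; 9 comparisons) 1 was lower with PAC1, and of the oxidative stress genes (NFE2L2, KEAP1; 9 comparisons) 1 was higher with RITA, and after subtraction 1 other. ATG7, an enzyme of autophagosome formation, was called by limma with none of the 4 compounds in 5 lines. The other calls were sgSLC35F2, 3 higher with YM155 and 1 lower with SJ172550, and sgNT, 1 higher with PAC1.

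With YM155, cells with sgSLC35F2 were more numerous than those with the median sgRNA in 3 lines, MDA-MB-231, HCC-38 and BT-20. In MDA-MB-231 sgSLC35F2 stood at 77.2% and 117.5% of DMSO at 1 nM, 110.3% and 126.98% at 10 nM, 85.2% and 48.4% at 100 nM, and 6.38% and 4.73% at 1000 nM. The other sgRNAs of the line ranged from 15.3% to 46.5% at 10 nM and from 2.70% to 13.2% at 100 nM, so sgSLC35F2 was clear of all of them at these doses and within 1.1 percentage points of their range at 1000 nM. Its AUC was 237.3 and 236.5 against medians of 63.7 and 65.9, a difference of 172.1 (SE 7.49, adjusted p = 7.97e-10). The line mean, which includes this pair, lay above the line median, as 100 nM YM155 gave MDA-MB-231 14.6% and 8.79% as the mean of all sgRNAs and 7.22% and 5.16% as their median.

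In HCC-38 sgSLC35F2 stood at 99.7% and 93.8% at 1 nM, 63.1% and 54.95% at 10 nM, 18.3% and 14.1% at 100 nM, and 5.12% and 5.24% at 1000 nM. It was above every other sgRNA of the line at 1, 10 and 100 nM, and its AUC lay 67.99 above the median (SE 6.14, adjusted p = 1.6e-05). In BT-20 it stood at 95.99% and 92.4%, 97.3% and 72.6%, 30.2% and 21.7%, and 3.11% and 7.39% at the 4 doses. It was above the others at 10 and 100 nM, and the AUC difference was 57 (SE 7.76, adjusted p = 9.8e-04).

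In ZR-75-1 and SKBR3 sgSLC35F2 was not called. ZR-75-1 gave 24.4% and 37.9% at 10 nM, within the other sgRNAs, and 22.6% and 18.96% at 100 nM, above the highest of the others (17.5% and 9.83%). At 1000 nM it gave 3.08%, within the others, and 15.8%, above their highest of 5.61%, on 120 and 240 reads. The AUC difference in ZR-75-1 was 13.2 (SE 11.02, adjusted p = 0.84). The edgeR test on read counts gave a log2 ratio of 0.71 for this pair (adjusted p = 0.076), which had a median of 1437.5 reads in DMSO wells. SKBR3 gave 55.9% and 57.1% at 10 nM and 7.75% and 11.2% at 100 nM, all within the range of the other sgRNAs, with a difference of -6.09 (SE 11.8, adjusted p = 0.98). The difference was itself tested between lines, a test chosen after these values were seen. Against the mean of the other 4 lines it was 139.1 in MDA-MB-231 (SE 15.04, adjusted p = 0.0027) and -83.7 in SKBR3 (adjusted p = 0.028), where 2.41% of all 870 combinations of compound and line were called. In ZR-75-1 it was -59.5, which missed the threshold (adjusted p = 0.095). How much SLC35F2 each line expresses or lost was not measured in these files.

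**Figure D3:**
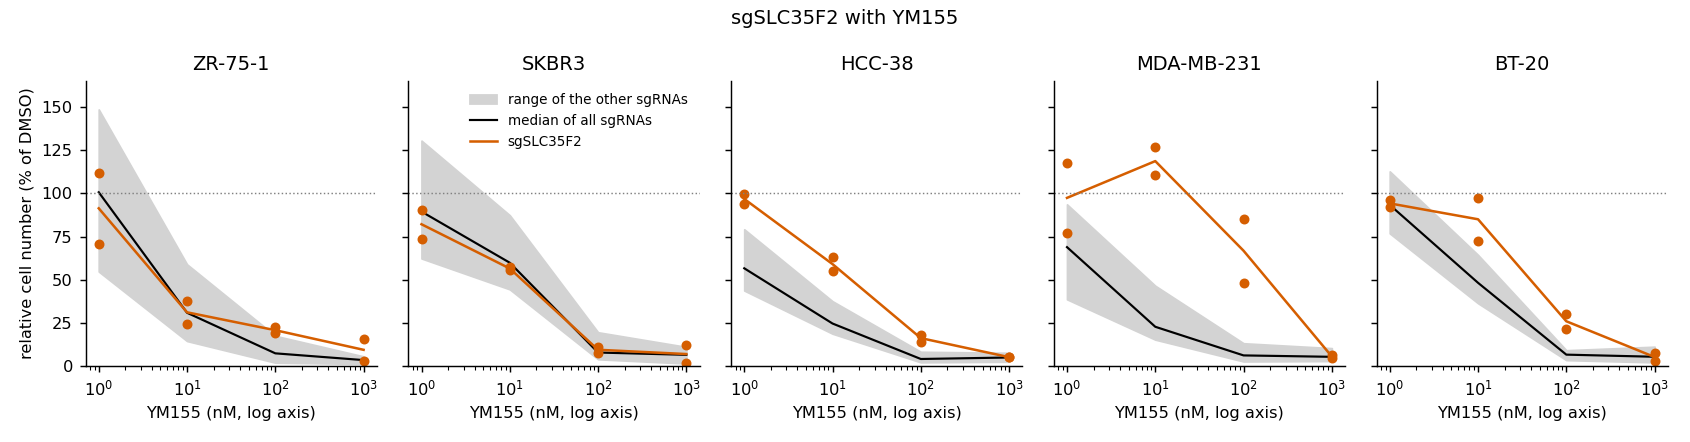
Relative cell number (percent of DMSO) of sgSLC35F2 against YM155 dose (nM, log axis) in the 5 lines; orange points are single wells and the orange line their mean, the black line is the median of all sgRNAs, and the shaded band runs from the lowest to the highest of the other sgRNAs over both replicates. The orange line leaves the band at 10 and 100 nM in BT-20, HCC-38 and MDA-MB-231, and at 10 nM stays inside it in ZR-75-1 and SKBR3.

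The other sgRNAs spread less with YM155. By limma no other sgRNA was called with YM155 in any line, while the edgeR test on read counts called 9 others, in all 5 lines. The lowest sgRNA was sgNT in ZR-75-1 (AUC 75.1) and BT-20 (93.3), sgKEAP1 in SKBR3 (93.3), and sgNFE2L2 in HCC-38 (51.03) and MDA-MB-231 (57.4), and the highest outside the 3 lines with a call were sgATF6 in ZR-75-1 (130.4) and sgATF4 in SKBR3 (137.6). sgNT differed from the median by -10.4 in BT-20, -4.01 in HCC-38, 8.82 in MDA-MB-231, -5.47 in SKBR3 and -14.0 in ZR-75-1, with an adjusted p of at least 0.80. By edgeR, which called 1.13% of all 10092 pairs, sgKEAP1 was higher than the median in BT-20 (log2 ratio 0.29, adjusted p = 7.4e-04), HCC-38 (0.40, adjusted p = 0.0014) and MDA-MB-231 (0.39, adjusted p = 0.0090). In SKBR3 sgATF4 (0.52, adjusted p = 3.2e-10) and sgNFE2L2 (0.36, adjusted p = 0.022) were higher, as was sgERN1 in ZR-75-1 (0.48, adjusted p = 0.0034). The edgeR calls below the median were sgHSF1 in BT-20 (-0.33, adjusted p = 0.0022) and, in HCC-38, sgNFE2L2 (-0.13, adjusted p = 0.0018) and sgATG7 (-0.19, adjusted p = 0.0022). The AUC differences of sgKEAP1 of 12.3, 18.4 and 20.9 did not pass the limma test (adjusted p of 0.71, 0.25 and 0.30). These edgeR calls were picked out after their values were seen. With PAC1 and SJ172550 edgeR called 0 sgRNAs, and with RITA 1, sgKEAP1 in BT-20 (-0.22, adjusted p = 0.038), on counts from which no swapped reads were subtracted. The AUC difference of this pair was -21.6 as deposited and -5.24 after subtraction, and limma called neither (adjusted p of 0.39 and 0.99).

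With RITA the 3 calls as deposited were all in the 2 lines that kept the most cells, and all 3 were lost when the swapped reads were subtracted. In MDA-MB-231 sgATF4 stood at 137.5% and 276.9% at 10 nM, where the median sgRNA was at 99.7% and 136.4%. At 100 nM it stood at 131.4% and 88.4%, at 1000 nM at 134.1% and 127.6%, and at 10000 nM at 67.1% and 42.9%. Its AUC was 107.7 above the median (SE 13.1, adjusted p = 4.0e-04), but 6.21 above it after subtraction (adjusted p = 1.0), where the 10 nM wells gave 76.7% and 114.5%. This pair had a median of 2642.5 reads in DMSO wells, 4.67% of all reads of its guide in the 5 lines, and between 23.8% and 65.1% of its reads in the RITA wells were estimated to be swapped.

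In HCC-38 sgKEAP1 stood at 164.7% and 231.5% at 10 nM RITA, 127.9% and 112.5% at 100 nM, 138.5% and 134.97% at 1000 nM, and 89.5% and 45.6% at 10000 nM. The AUC difference was 57.7 (SE 10.2, adjusted p = 0.0095) as deposited and -22.3 (adjusted p = 0.67) after subtraction, where the 10 nM wells gave 92.95% and 82.3%. Of its reads in RITA wells 14.9% to 69.6% were estimated to be swapped. sgATF6 in the same line was 45.7 above the median (adjusted p = 0.042) and 27.9 above it after subtraction (adjusted p = 0.51), with 10.3% to 54.5% of its reads swapped.

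The subtraction also brought up 1 pair that had not been called. MDA-MB-231 sgKEAP1 had AUCs of 311.3 and 290.4 as deposited, 36.7 above the median (adjusted p = 0.30), and of 299.4 and 271.3 after subtraction, 61.02 above it (SE 10.9, adjusted p = 0.029). After subtraction 0.228% of all 10092 comparisons were called higher. At 100 nM RITA MDA-MB-231 sgKEAP1 stood at 137.2% and 123.3%, or 134.01% and 121.7% after subtraction, where the median sgRNA then gave 94.9% and 77.1%. The gap was widest at this dose. After subtraction it stood at 90.6% and 118.6% at 10 nM, with medians of 80.3% and 92.3%. At 1000 nM it gave 96.1% and 77.04%, with medians of 82.97% and 70.8%. At 10000 nM it gave 47.9% and 26.5%, on either side of the medians of 42.4% and 31.2%. Its estimated share of swapped reads was lower than that of sgATF4, 3.28% to 24.6%. With RITA sgNT differed from the median by 7.46 in BT-20, -13.0 in HCC-38, 33.96 in MDA-MB-231, 0.59 in SKBR3 and 2.15 in ZR-75-1, and no call was made (adjusted p of at least 0.36). In ZR-75-1 the sgRNAs ranged from 41.7 (sgXBP1) to 65.8 (sgATF4), in SKBR3 from 55.03 (sgHSF1) to 82.9 (sgXBP1), and in BT-20 from 135.01 (sgKEAP1) to 192.9 (sgNFE2L2). In the lines with calls, sgNT at 318.9 was the lowest in HCC-38 and sgATF6 at 230.1 in MDA-MB-231. These extremes are as deposited, and most belonged to other sgRNAs after subtraction. ZR-75-1 then ranged from 31.1 (sgSLC35F2) to 43.4 (sgATF3), SKBR3 from 46.1 (sgNT) to 60.8 (sgSLC35F2), BT-20 from 118.8 (sgERN1) to 136.3 (sgATF6), HCC-38 from 258.3 (sgHSF1) to 309.5 (sgATF6), and MDA-MB-231 from 206.4 (sgATF6) to 285.3 (sgKEAP1). BT-20 sgNFE2L2, 36.3 above the median as deposited, was then at -0.43 from it, and sgNT differed by -7.04 in BT-20, -1.04 in HCC-38, 12.02 in MDA-MB-231, -8.34 in SKBR3 and 2.86 in ZR-75-1.

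**Figure D4:**
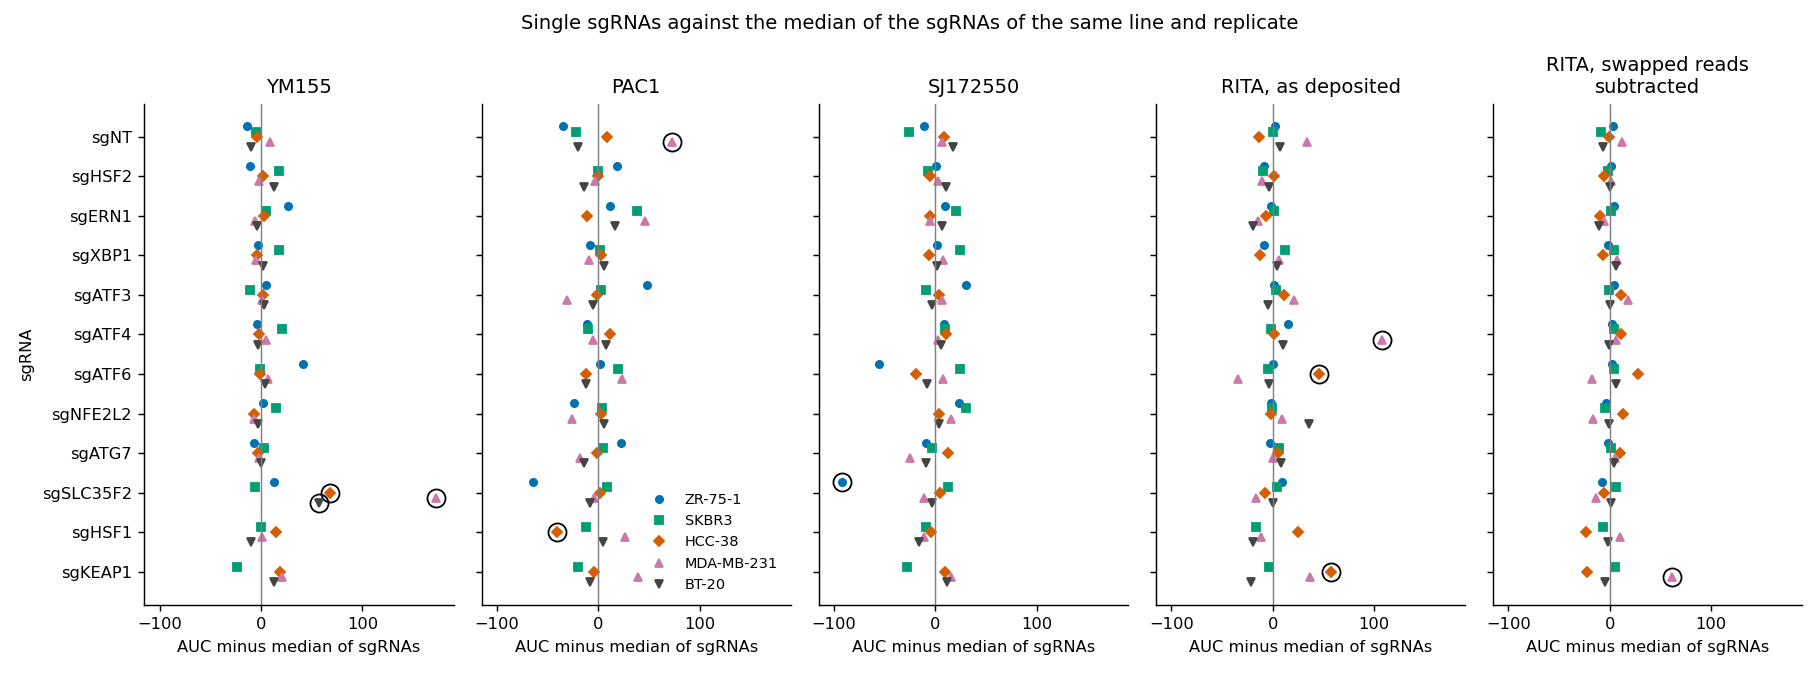
AUC of each sgRNA minus the median of the sgRNAs of its line and replicate (mean of 2 replicates; x axis, AUC units; symbols, lines), by compound, with RITA as deposited and with swapped reads subtracted. Black rings mark an adjusted p under 0.05 in limma: sgSLC35F2 with YM155 at 172.1, 67.99 and 57, and with RITA 3 rings as deposited and 1 other, MDA-MB-231 sgKEAP1 at 61.02, after subtraction.

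With PAC1, HCC-38 sgHSF1 was the call below the median. HSF1 is the main transcription factor of the heat shock response. This sgRNA stood at 104.5% and 88.5% at 10 nM, 82.1% and 71.8% at 100 nM, 83.5% and 60.7% at 1000 nM, and 36.9% and 25.02% at 10000 nM, with medians of 105.5% and 99.5%, 96.8% and 93.9%, 99.7% and 79.4%, and 33.98% and 29.6%. It was below the median in both replicates at the 3 lower doses, most at 100 and 1000 nM, while at 10000 nM, the dose at which PAC1 lowered the line, its replicates lay on either side of the median. The AUC difference was -41.1 (SE 7.79, adjusted p = 0.017), and it lost the call against sgNT (-49.5, adjusted p = 0.059).

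The call above the median with PAC1 was the control itself, sgNT in MDA-MB-231. It stood at 81.3% and 126.5% at 10 nM, 134.2% and 134.1% at 100 nM, 131.6% and 85.7% at 1000 nM, and 28.6% and 34.9% at 10000 nM, and its AUC was 73.1 above the median (SE 14.2, adjusted p = 0.019). The other sgRNAs of that line differed from the median by 46.6 (sgERN1), 39.6 (sgKEAP1), 26.6 (sgHSF1), 23.2 (sgATF6), -3.70 (sgHSF2), -4.33 (sgSLC35F2), -5.47 (sgATF4), -9.50 (sgXBP1), -17.6 (sgATG7), -26.0 (sgNFE2L2) and -31.0 (sgATF3), and none of these was called. Set against sgNT instead, all 11 were lower, and sgATF3 (-104, adjusted p = 0.026) and sgNFE2L2 (-99.1, adjusted p = 0.032) passed the test, although both lay within 32 of the median. In the other lines sgNT with PAC1 differed from the median by -20.0 in BT-20, 8.37 in HCC-38, -22.4 in SKBR3 and -34.8 in ZR-75-1 (adjusted p of at least 0.51). The sgRNAs ranged from 162.7 (sgSLC35F2) to 275.3 (sgATF3) in ZR-75-1, from 206.8 (sgNT) to 267.2 (sgERN1) in SKBR3, from 212.7 (sgHSF1) to 265.5 (sgATF4) in HCC-38, and from 227.6 (sgNT) to 263.8 (sgERN1) in BT-20.

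With SJ172550, ZR-75-1 sgSLC35F2 was called lower. It stood at 76.5% and 80.4% at 10 nM, 49.7% and 38.8% at 100 nM, 38.6% and 30.8% at 1000 nM, and 50.4% and 101.3% at 10000 nM. It was the lowest of the sgRNAs at 1000 nM in both replicates, but at 10000 nM both replicates were within the range of the others (36.7% to 96.8% and 64.03% to 109.5%). The AUC difference was -92.1 (SE 15.6, adjusted p = 0.011), and the call was lost against sgNT (-80.9, adjusted p = 0.14). This pair had a median of 1437.5 reads in DMSO wells. In the other lines sgSLC35F2 with SJ172550 differed from the median by -11.7 in MDA-MB-231, -3.34 in BT-20, 4.02 in HCC-38 and 12.8 in SKBR3. sgNT differed by 17.2 in BT-20, 8.25 in HCC-38, 6.65 in MDA-MB-231, -26.3 in SKBR3 and -11.2 in ZR-75-1, without a call. The highest sgRNA was sgATF3 in ZR-75-1 (278.5), and in the other 4 lines the sgRNAs spanned 31.5 to 58.8 AUC units.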

How the data were processed

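The deposited tables of single wells give the read count of each of 126 pairs of a line barcode and an sgRNA barcode, made by the authors after demultiplexing with bcl2fastq (named in the submitters' processing notes), without alignment to a genome or normalization. A further deposited table gives relative cell number for 174 compounds, a ratio times 100 of the cell number read off the well's standard curve (log10 reads against log10 cells of 5 standards) to the median of DMSO wells. The ratios were recomputed from the counts with the median of all 96 DMSO wells and checked against the deposited values. Doses came from the labels and the study's compound list.

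Line values in percent were tested as log2(value + 1) with limma 3.58.1 (R 4.3.3) over all 1488 wells, 3480 tests of compound, dose and line, and residual degrees of freedom of 791. Compound pairs came from the same fit, adjusted over 105 tests. AUC values were tested with limma between lines (870 tests, and 1740 for pairs of lines) and for each sgRNA minus the median of the sgRNAs (10092 tests, robust). All p-values are two-sided and Benjamini-Hochberg adjusted, with calls at 0.05. edgeR 4.0.16 was run on the counts as an alternative. The tests were tested on simulated data. Swapped reads were estimated from the 41 never-made pairs and subtracted as an alternative, and the others changed the line value, filter, pseudocount, scale, DMSO reference, spread and replicates. sgRNAs of a replicate share wells. Over 174 compounds the correlation of their deviations with those of sgNT had a median of 0.270 in BT-20, 0.671 in HCC-38, 0.224 in MDA-MB-231, 0.268 in SKBR3 and 0.126 in ZR-75-1. Centring on the median of the replicate takes out only the part that the sgRNAs of a line share equally.

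The sgRNAs named are all with an adjusted p under 0.05, sgSLC35F2 with YM155, sgNT, all sgRNAs of MDA-MB-231 with PAC1, and the highest and lowest of each line. The 4 compounds, the gene groups and this rule were chosen with earlier results of these data known. The raw reads were not analysed here.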

Additional observations from a re-analysis of the deposited data

Results flagged for a closer look

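The effect of a compound on a line differed from its effect on the other 4 lines, by the limma test of the AUC difference itself, in 9 cases. With RITA the differences were -159.6 in ZR-75-1, -135.4 in SKBR3, -28.1 in BT-20, 120.3 in MDA-MB-231 and 202.8 in HCC-38. With YM155 they were 31.98 in SKBR3 and -35.3 in HCC-38, and with SJ172550 -35.3 in ZR-75-1 and 27.5 in HCC-38. The difference of sgSLC35F2 from the median with YM155 was 139.1 against the mean of the other lines in MDA-MB-231 and -83.7 in SKBR3.

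Reads on pairs of barcodes that were never put together lay outside the main measurement, and in all 8 RITA wells the estimated share of swapped reads was above every DMSO well. It was 25.8% and 40.9% at 10 nM, 15.5% and 10.0% at 100 nM, 20.6% and 24.1% at 1000 nM, and 19.2% and 10.2% at 10000 nM. What gave these wells more swapped reads was not tested.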

How the results depend on the processing

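Of the recomputed values of single items, 40 lost a call, 1 gained one and 3 reversed, 6 counts moved by over 1.5 times, and all others kept their direction and their side of the threshold or stayed near the main value. The values that reversed were HCC-38 with 10 nM RITA (-0.11) and HCC-38 sgKEAP1 with RITA (-22.3), both with swapped reads subtracted, where the estimated swapped share of the wells bears on the value, and the BT-20 difference with RITA (0.051 on the log2 scale). The count of lines and doses below DMSO with SJ172550 was 5 on the percent scale and 1 without either replicate, where the lone well of a group is assumed to vary like the other groups. With sgNT alone 4 lines differed from the rest. The count of sgRNAs that differed was 5 with the spread of each pair taken over all wells and 5 with no replicate block, against 9. With the DMSO wells of the same dose level and replicate number as the reference it was 6, all among the 9. The replicate block as a term gave 10, all 9 among them. This block left the counts of calls against DMSO (17, 6, 13 and 3) and between compounds (74) as they were. It raised the lines that differed from the other 4 from 9 to 13. edgeR on the counts called 13, of which 3, sgSLC35F2 with YM155, were among the 9. HCC-38 and ZR-75-1 with SJ172550 (23.6 to 37.3 and -19.3 to -37.1) and BT-20 with RITA were not called under several line values. The cause of these changes was not tested. For line differences and sgRNAs, leaving out a replicate gave values with no test. Swap shares without the spike-in standards were not run; the line barcodes with the standards' guides alone, an alternative chosen after seeing the data, gave a median of 20.1% in RITA wells. With 2 wells a dose, the spread between wells rather than the depth limits what differences were detectable.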
